A study of Homo sapiens with 21 samples.

Results

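Small nucleolar RNAs (snoRNAs) and small Cajal body RNAs (scaRNAs) were examined as they appear in messenger RNA libraries of a human cell line. The set comprised every symbol beginning with SNORA (box H/ACA snoRNAs), SNORD (box C/D snoRNAs) or SCARNA (scaRNAs) that reached 1 FPKM in at least 3 of the 21 libraries. FPKM counts fragments relative to exon length and library depth. The scaling by length is uncertain for annotations as short as the members (median length 87 bases), so their levels beside longer genes are approximate. Of 441 such symbols in a table of 27142 genes, 166 were members: 55 of 132 SNORA, 107 of 281 SNORD and 4 of 28 SCARNA symbols. The other symbols included 154 listed at 0 in every library. Because the members were chosen by their level over all libraries, the levels are given as a description.

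Just outside the threshold, 21 annotations reached 1 FPKM in exactly 2 libraries, and their means over the 21 libraries ran from 0.214 to 0.584 FPKM (median 0.389). Just inside it, 9 reached 1 FPKM in exactly 3 libraries, with means of 0.312 to 0.664 FPKM (median 0.495). The other end held 49 members at 1 FPKM or more in all 21 libraries. No member passed through the libraries of only 1 group. For 99 members, every one of the 7 groups had a library at 1 FPKM or more.

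The cells were HEK 293FT, a fast-growing derivative of human embryonic kidney cells that carries the SV40 large T antigen, at passages 8 to 12. Plasmids were transfected with Lipofectamine 2000 in every group, RNA was taken after 48 h, and stranded mRNA libraries were made. The 7 groups of 3 libraries were NT shRNA (non-targeting), ANXA4 shRNA, B4GALNT1 shRNA, RfxCasR with NT gRNA, RfxCasR with B4GALNT1 gRNA, RfxCasR with NT array, and RfxCasR with ANXA4 array. The replicates are called biological, with no cultures named, so every p-value reflects only how far these samples spread. A short hairpin RNA (shRNA) is cut by the cell into a small RNA that directs Argonaute to matching transcripts. RfxCasR is a CRISPR effector that cuts RNA, led to its target by a guide RNA (gRNA), either alone or as several guides in an array. ANXA4 encodes an annexin and B4GALNT1 an enzyme of ganglioside synthesis. The series asks how specific the knockdown is with each method, and no untransfected cells entered the comparisons.

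Box C/D snoRNAs guide the methyltransferase FBL to riboses of ribosomal and small nuclear RNA, and box H/ACA snoRNAs guide the pseudouridine synthase DKC1 to uridines. ScaRNAs do the same work on spliceosomal small nuclear RNAs and gather in Cajal bodies. In human cells most of them lie in introns of other genes, called host genes, and are freed from the spliced intron by debranching and trimming. The mature RNAs lack a poly(A) tail, and many hosts are ribosomal protein genes or noncoding genes whose exons encode no protein.

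Sequences are shown first for members of each class that differed clearly between the 2 control groups. They are GENCODE v29 transcripts in GRCh38 coordinates, which held 137 of the 166 members by name, whereas the expression table uses hg19. SCARNA12 lies at chr12:6967337-6967606 (minus strand) in PHB2, SNORD16 at chr15:66502812-66502910 (minus) in RPL4 and SNORA14B at chr1:235127803-235127937 (minus) in TOMM20. Each runs 5′ to 3′. In SNORD members, capitals mark the letters TGATGA within the first 20 bases (part of box C) and CTGA within the last 20 (box D), and in the others ACA within the last 8 bases.
SCARNA12: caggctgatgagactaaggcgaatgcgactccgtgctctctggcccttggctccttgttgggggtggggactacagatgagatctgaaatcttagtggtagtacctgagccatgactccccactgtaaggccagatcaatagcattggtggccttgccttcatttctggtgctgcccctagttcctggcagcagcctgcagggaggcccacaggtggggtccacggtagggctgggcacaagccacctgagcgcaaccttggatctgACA
SNORD16: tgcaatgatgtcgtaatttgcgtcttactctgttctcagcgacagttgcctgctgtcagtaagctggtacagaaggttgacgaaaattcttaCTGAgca
SNORA14B: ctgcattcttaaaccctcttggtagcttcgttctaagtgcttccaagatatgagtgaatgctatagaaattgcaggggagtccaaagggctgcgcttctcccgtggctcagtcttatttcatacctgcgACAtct

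The next set is shown because 3 copies with similar sequence lie in 1 host and 1 of them was called between the arrays. SNORD18A (chr15:66503243-66503314, minus), SNORD18B (chr15:66502020-66502091, minus) and SNORD18C (chr15:66501250-66501318, minus) lie in RPL4, with 77.8% to 84.7% identity between any pair of them. SNORD124 (chr17:40027542-40027645, minus), in an intron of MED24, is a box C/D RNA that was listed at 0 in 1 control group.
SNORD18A: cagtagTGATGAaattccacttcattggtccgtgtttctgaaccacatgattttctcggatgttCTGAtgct
SNORD18B: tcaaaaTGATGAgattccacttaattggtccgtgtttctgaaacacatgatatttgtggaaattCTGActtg
SNORD18C: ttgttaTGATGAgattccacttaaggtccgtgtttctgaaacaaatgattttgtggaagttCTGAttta
SNORD124: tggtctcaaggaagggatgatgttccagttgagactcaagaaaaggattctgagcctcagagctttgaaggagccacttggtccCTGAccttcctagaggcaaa

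Most members carried the letters of their class. CTGA stood within the last 20 bases of all 84 SNORD members with a sequence, against 95.6% of 275 SNORD transcripts in GENCODE. TGATGA stood within the first 20 bases of 52 of the 84 (61.9%), against 69.5% of all SNORD transcripts, and SNORD16 and SNORD124 had no such match in this window. ACA stood within the last 8 bases of 45 of 49 SNORA members (91.8%), against 90.8% of 142 SNORA transcripts. Only the strand of the RNA was searched, since the letters are read in the transcript, and the motifs do not overlap.

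Most members were low. The mean over the 21 libraries was under 1 FPKM for 49 members, 1 to 2 for 41, 2 to 5 for 33, 5 to 10 for 22, 10 to 100 for 13 and at least 100 for 8, with a median of 1.82 FPKM. At these lengths the values rest on few reads. The recovered read number, FPKM multiplied by length and depth, averaged under 5 per library in 83 members, 5 to 20 in 53 and at least 20 in 30. A value of 1 FPKM over 100 bases corresponds to 2.14 to 3.95 reads, since recovered depth was 21.4 to 39.5 M reads. The authors' deposited tables give lower mean counts: over the members they list, the median ratio of recovered reads to the authors' mean count was 1.75, 1.91, 2.39 and 2.07 for the ANXA4 shRNA, B4GALNT1 shRNA, B4GALNT1 gRNA and array comparisons. Where 1 fragment stands for more than 1 recovered read, the limits that 3 reads allow would be higher than those given here.

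The highest values belonged to SNORD141A and SNORD141B, at means of 2387 and 2341 FPKM. The table gives both the same place on hg19, chr9:135895817-135895921, whereas RefSeq (GRCh38.p14) puts SNORD141B on chromosome 5 inside EEF1A1P13, a processed pseudogene of the elongation factor gene EEF1A1. Their reads cannot be assigned to 1 copy, and EEF1A1 itself stood at 292 to 390 FPKM. SNORA105A and SNORA105B shared 1 place in the chaperonin gene HSPD1 in the table in the same way, at 206 and 202 FPKM. The remaining members at 100 FPKM or more were SNORD139 in RPL3 (210 FPKM), SNORD49B in the noncoding gene LRRC75A-AS1 (133), SNORD86 in NOP56 (126) and SNORA100 in HNRNPU (106). SNORD62A and SNORD62B had the same value in every library, as did SNORD103A and SNORD103B.

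A host gene on the same strand enclosed 154 of the 166 members in the table's coordinates, and there were 83 hosts, of which 33 held more than 1 member. Ribosomal protein genes were 24 of the hosts and held 50 members. The noncoding hosts GAS5 and the SNHG genes held 34, with 10 in GAS5 and 8 in SNHG1. NOP56, which encodes a core protein of box C/D particles, held 5.

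Positions were read from GENCODE v29. Exons of transcripts in the basic set covered at least 50% of 20 members, 96 lay in exons of other transcripts only, 47 in introns, 1 partly in an exon and 2 outside other genes. Of the 137 sequences, 96 shared at least 20% of their 25-base words with a transcript of another gene, and for SCARNA12 88.5% of its length lay in a retained-intron transcript of PHB2. Reads of a mature small RNA and reads of the host transcript that spans it cannot be told apart in these values. For 2 members, SNORD141B and SNORA105A, the reference chromosome was not the table's, so their class of position does not describe the place that was counted.

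The median level was 2.92 FPKM for members in basic exons, 2.27 for those in other exons and 0.974 for intronic members, and 7 of 20, 11 of 96 and 1 of 47 had means of at least 10 FPKM. Relative to the host, the medians were 3.35%, 1.48% and 2.01% of the host's FPKM. SNORA100, SNORA86 and SNORD86 stood far above that, at 71.0% of HNRNPU, 54.0% of ITGB1 and 93.1% of NOP56. So did the intronic SNORD104 (86.3% of SNHG25), and SNORA105A and SNORA105B (62.5% and 61.5% of HSPD1). SNORA57 had the highest share, at 148% of METTL12, a host at only 0.418 FPKM. SNORD16 stood at 1.15% of RPL4. These shares describe these libraries and are no measure of relative abundance at such short lengths. No test was made of them because level chose the members.

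**Figure D1:**
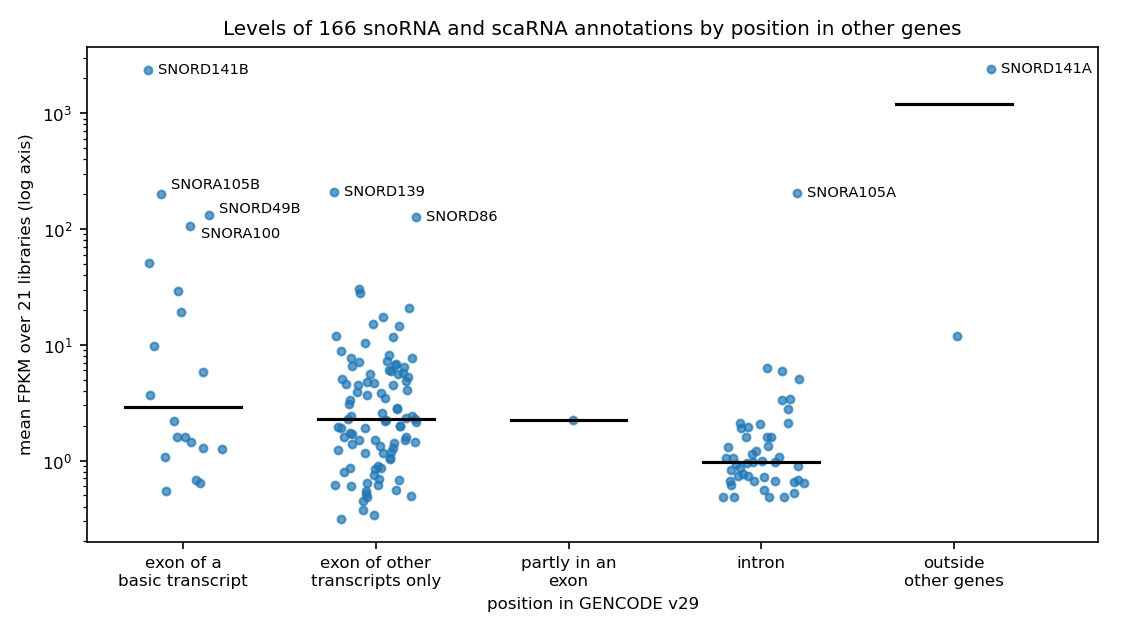
Mean FPKM over the 21 libraries (log axis) of each of the 166 members, as points by position class in GENCODE v29, with bars at the class medians. Intronic members sit lowest, with a median of 0.974 FPKM, and only SNORA105A, whose counted place differs from the reference, exceeds 10 FPKM there.

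Whole-library values varied between methods, and in bulk RNA fewer cells with a transcript and less of it per cell cannot be told apart. The members took 0.0529% to 0.0666% of reads in genes in 15 libraries (shRNA or single guide) and 0.10% to 0.11% in the 6 array libraries. SNORD141A and SNORD141B share 1 place in the table and had near-equal reads, 4935 and 4805 in NT shRNA replicate 1. These shares can therefore count the same reads under both names. SNORA105A and SNORA105B share a place in the same way and remain in all the shares given here. Without SNORD141A and SNORD141B the shares were 0.0152% to 0.0182% and 0.0180% to 0.0202%. ANXA4 went against the array labels: it stood at 2.54 to 3.34 FPKM in the libraries labelled NT array and at 6.77 to 7.22 in those labelled ANXA4 array, and the authors' deposited table gives the opposite sign (log2 fold change of -1.21). With the shRNA, ANXA4 fell from 5.57 to 6.31 FPKM to 2.15 to 2.56. B4GALNT1 stood at 3.92 to 4.27 FPKM in NT shRNA and 2.59 to 2.96 under its shRNA, and at 5.09 to 6.88 with the NT gRNA and 2.03 to 2.36 under its gRNA. The array libraries were deeper (34.7 to 39.5 M reads against 21.4 to 30.7), and among genes with 1 to 20 recovered reads, 85.8% to 87.2% of the read numbers were even there, against 61.1% to 63.8% elsewhere. For the members the even shares were 59.9% to 66.4% and 41.4% to 52.1%. The part of these differences in the array results was not tested.

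**Figure D2:**
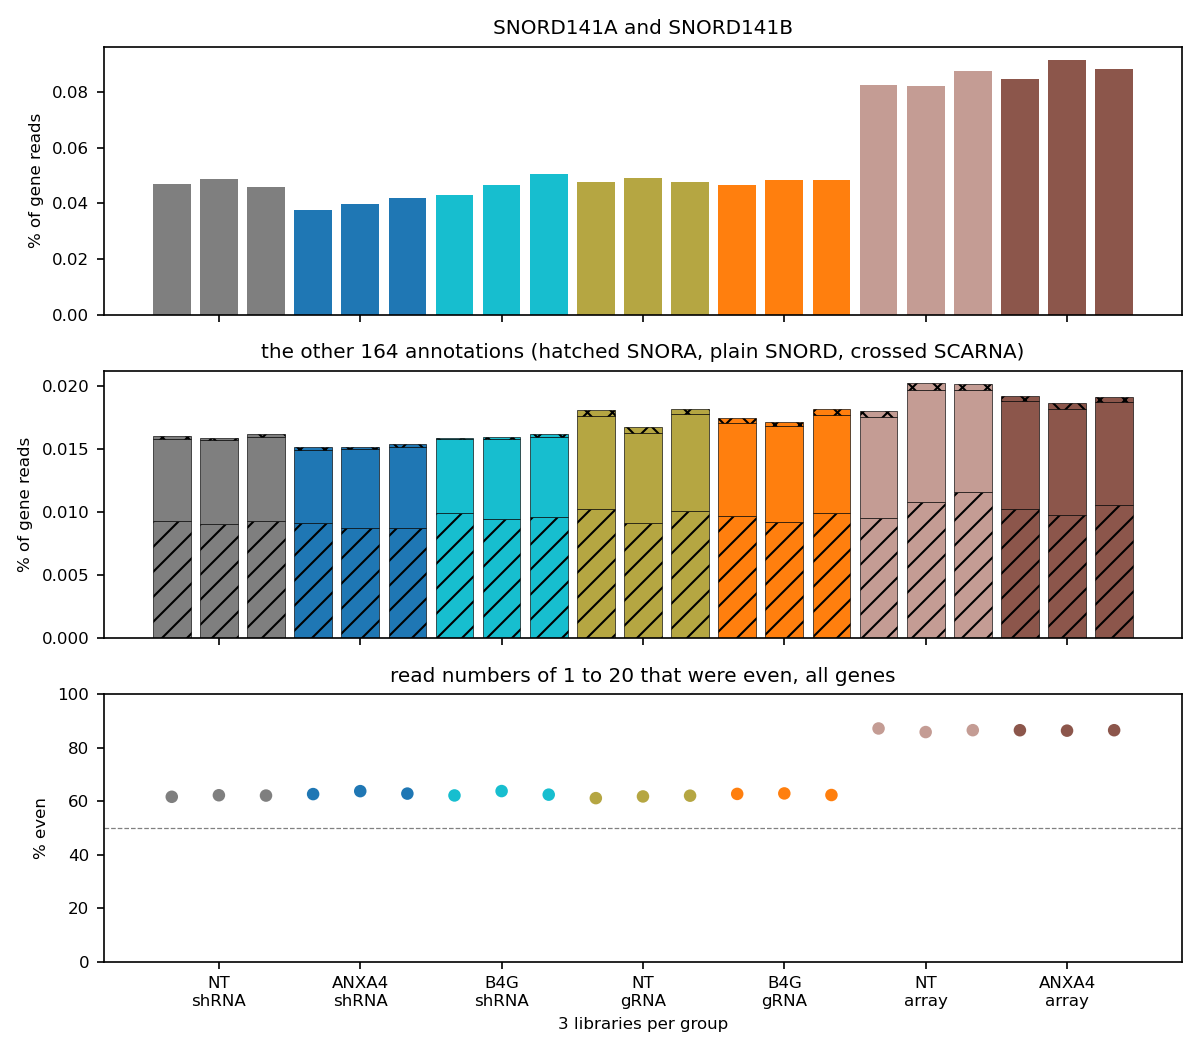
Share of reads in genes (%) taken by SNORD141A and SNORD141B (top bars), and by the other 164 members by class (middle bars), with the share of even read numbers among genes with 1 to 20 reads (bottom points), 1 mark per library. The 6 array libraries stand above the other 15 in the top and bottom rows, at 0.0820% to 0.0915% and 85.8% to 87.2%. The top row can count the same reads under both names.

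Tests were read off 1 limma model of log2(FPKM + 1) fitted to all 13679 genes that passed the same filter, and calls used an adjusted p (Benjamini-Hochberg) under 0.05. The scale understates the change of low genes. For each gene 1 spread was fitted over all 21 libraries, but array replicates lay further apart than the others. The chi-square per degree of freedom between the read numbers of 2 replicates was 5.91 to 13.0 in the array groups and 2.25 to 4.16 elsewhere. The part of this in the array p-values was not tested. Members with 1 shared place (SNORD141A and SNORD141B, SNORA105A and SNORA105B) or identical values (SNORD62A and SNORD62B, SNORD103A and SNORD103B) are counted separately throughout. In 5 of the 6 comparisons, all but the arrays by label, a smaller share of the members than of all genes was called. Between RfxCasR NT gRNA and NT shRNA, 3 of 83 members with under 5 reads were called higher, 8 of 53 with 5 to 20 reads and 9 of 30 with at least 20 reads. Called lower were 3, 0 and 0. For the ANXA4 shRNA the counts were 5, 0 and 2 higher and 1, 3 and 4 lower. For the B4GALNT1 shRNA they were 3, 1 and 2 higher and 3, 2 and 3 lower. For arrays against single guides they were 6, 10 and 16 higher and 11, 4 and 3 lower. With both directions counted, members with at least 20 reads had the largest called share in each of these comparisons. The arrays by label had 1, 1 and 0 calls, and the B4GALNT1 gRNA 0. The part of read number in the members' smaller called share was not tested.

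**Figure D3:**
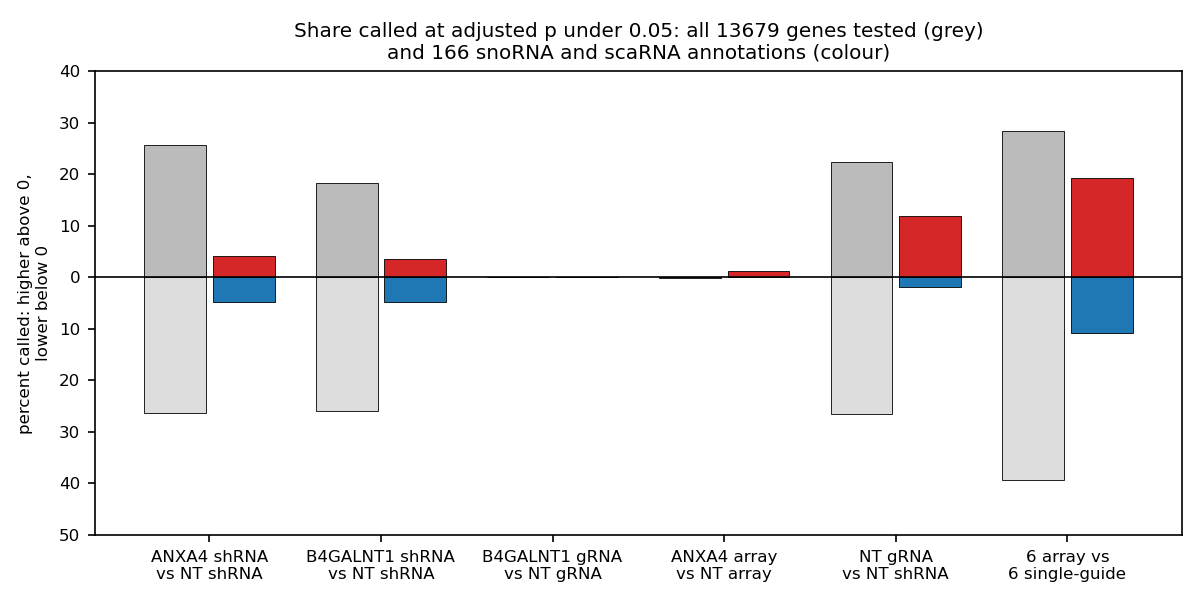
Percent of all 13679 genes tested (grey) and of the 166 members (colour) called higher (above 0) or lower (below 0) in the 6 comparisons. In the 4 comparisons with over 10% of all genes called, the members' bars are shorter than the grey ones, as for RfxCasR NT gRNA against NT shRNA, with 12% against 22.4% higher and 1.81% against 26.5% lower.

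The 2 control groups, RfxCasR NT gRNA and NT shRNA, differ in the method of knockdown and not in a target. Of the 166 members, 23 were called (13.9%), against 48.9% of all genes. Of these, 20 were higher (12%, against 22.4% of all genes) and 3 were lower (1.81%, against 26.5%). The median difference was 0.10 over the members and -0.02 over all genes on the log2(FPKM + 1) scale. The libraries of the groups did not overlap for 22 members in the higher direction (13.3%, against 27.6% of all genes) and 9 in the lower (5.42%, against 33.1%). Without NT shRNA replicate 1, 15 members were called.

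Among scaRNAs, SCARNA12, which guides modification of a spliceosomal small nuclear RNA, had the largest difference. It stood at 2.92, 0.981 and 5.47 FPKM in the NT shRNA libraries (19, 6 and 34 reads) and at 11.9, 11.2 and 9.04 in the RfxCasR NT gRNA libraries (88, 74 and 60 reads). All libraries of the second group lay above the first, and the NT shRNA libraries spread widely. The difference was 1.66 (SE 0.27, limma adjusted p = 6.04e-05), while the host PHB2, a prohibitin of the inner mitochondrial membrane, differed by -0.06 (adjusted p = 0.128). The other groups fell on the same sides: 1.8 to 5.75 FPKM with the 2 targeting shRNAs, 7.39 to 9.95 with the B4GALNT1 gRNA and 10.2 to 14.5 in the arrays. SCARNA13, in the noncoding gene SNHG10, stood lower with the NT gRNA, at 0.397, 0.447 and 0.148 FPKM against 1.05, 1.28 and 0.632 (difference -0.57, adjusted p = 0.041), on 1 to 8 reads a library. Leaving out any 1 of 5 of the 6 libraries removed that call, the exception being NT shRNA replicate 3. The sum of the 4 scaRNAs was 0.000121% to 0.000281% of gene reads in the 9 shRNA libraries, 0.000336% to 0.000441% in the single-guide libraries and 0.000430% to 0.000529% in the arrays.

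Of the box H/ACA members, SNORA68 and SNORA14B are described here. The summed SNORA share overlapped between the groups, at 0.00906% to 0.00930% of gene reads in NT shRNA and 0.00915% to 0.0102% in RfxCasR NT gRNA. SNORA68 stood at 1.88, 3.67 and 1.97 FPKM in NT shRNA and at 7.42, 6.81 and 5.22 in RfxCasR NT gRNA. The groups did not overlap, with a difference of 1.12 (SE 0.17, adjusted p = 3.35e-05). Over the other groups SNORA68 ran from 2.35 to 4.19 FPKM with targeting shRNAs, from 4.41 to 6.51 with the B4GALNT1 gRNA and from 7.32 to 10.4 in the arrays. SNORA14B stood at 1.54, 1.31 and 0.323 FPKM in NT shRNA (5, 4 and 1 reads) and at 4.60, 5.18 and 5.75 in RfxCasR NT gRNA (17, 17 and 19 reads), a difference of 1.64 (adjusted p = 2.37e-04). Its host TOMM20, a mitochondrial import receptor, was also higher, by 0.44 (adjusted p = 1.33e-08).

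Several box C/D members rose, and SNORD16 did so while its host did not. SNORD16 stood at 5.83, 5.33 and 3.93 FPKM in NT shRNA and at 13.2, 13.6 and 13.1 in RfxCasR NT gRNA (difference 1.26, SE 0.25, adjusted p = 3.70e-04). The groups were far apart, whereas RPL4 was slightly lower, with a difference of -0.06 (adjusted p = 0.0449). SNORD16 was lower in all 9 shRNA libraries (1.89 to 5.83 FPKM) than in the single-guide (7.44 to 13.6) or array libraries (16.1 to 33.0). SNORD38B stood at 4.25, 4.53 and 5.09 FPKM in NT shRNA and at 13.9, 10.2 and 10.7 with the NT gRNA (difference 1.16, adjusted p = 0.00203). SNORD55 stood at 27.1, 15.1 and 20.7 against 37.3, 37.0 and 30.0 FPKM (difference 0.73, adjusted p = 0.00375).

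Members of noncoding hosts were among the rises. SNORD25, which lies in an exon of SNHG1, stood at 3.75, 8.67 and 3.28 FPKM in NT shRNA and at 14.3, 13.0 and 11.7 in RfxCasR NT gRNA. The groups did not overlap (difference 1.26, adjusted p = 0.00204), and SNHG1 rose too, by 0.55 (adjusted p = 1.11e-06), so this member and its host moved the same way. SNORD76 in GAS5 rose by 1.24 (adjusted p = 0.00144; 2.51 ± 0.87 against 7.51 ± 3.3 FPKM, SD, n = 3 each) while GAS5 differed by 0.09. SNORD48, in C6orf48, stood at 1.33, 4.24 and 2.09 against 7.58, 6.57 and 9.13 FPKM (difference 1.38, adjusted p = 0.00938), a call lost without NT shRNA replicate 1. With the B4GALNT1 gRNA SNORD48 stood at 1.57 to 3.77 FPKM, within the range of the shRNA libraries.

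The called falls rested on few reads. SNORD63 in HSPA9 stood at 1.85, 0.657 and 0.646 FPKM in NT shRNA (3, 1 and 1 reads) and at 0 in every RfxCasR NT gRNA library, where 3 reads would have given 1.62 to 1.83 FPKM. SNORD77 in GAS5 stood at 2.06, 0.733 and 2.16 FPKM against 0.605, 0 and 0.676, on 0 to 3 reads. Their limma adjusted p-values were 0.0164 and 0.0125, and both calls were lost without NT shRNA replicate 1. For SNORD77 the call was also lost without NT shRNA replicate 3 or RfxCasR NT gRNA replicate 2.

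Every NT shRNA library listed SNORD124 at 0, where 3 reads would have given 1.21 to 1.29 FPKM. It stood at 0.400, 1.38 and 1.73 FPKM with the ANXA4 shRNA (1, 3 and 4 reads), at 2.03, 1.73 and 0.406 with the B4GALNT1 shRNA (6, 4 and 1 reads) and at 2.13, 1.2 and 0.398 with the NT gRNA (6, 3 and 1 reads). Each of these groups was called higher than NT shRNA (limma adjusted p = 0.0287, 0.0193 and 0.027), and the 3 comparisons share the same NT shRNA libraries. In the arrays SNORD124 ran from 0.281 to 3.39 FPKM. No fold is given, since the values lie near what 3 reads allow, and leaving out single libraries of either group ended the calls, with 2 to 5 of 6 such removals doing so. MED24, the Mediator subunit gene around it, differed by 0.26 with the ANXA4 shRNA (adjusted p = 3.32e-05) and by -0.02 and -0.04 in the others.

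**Figure D4:**
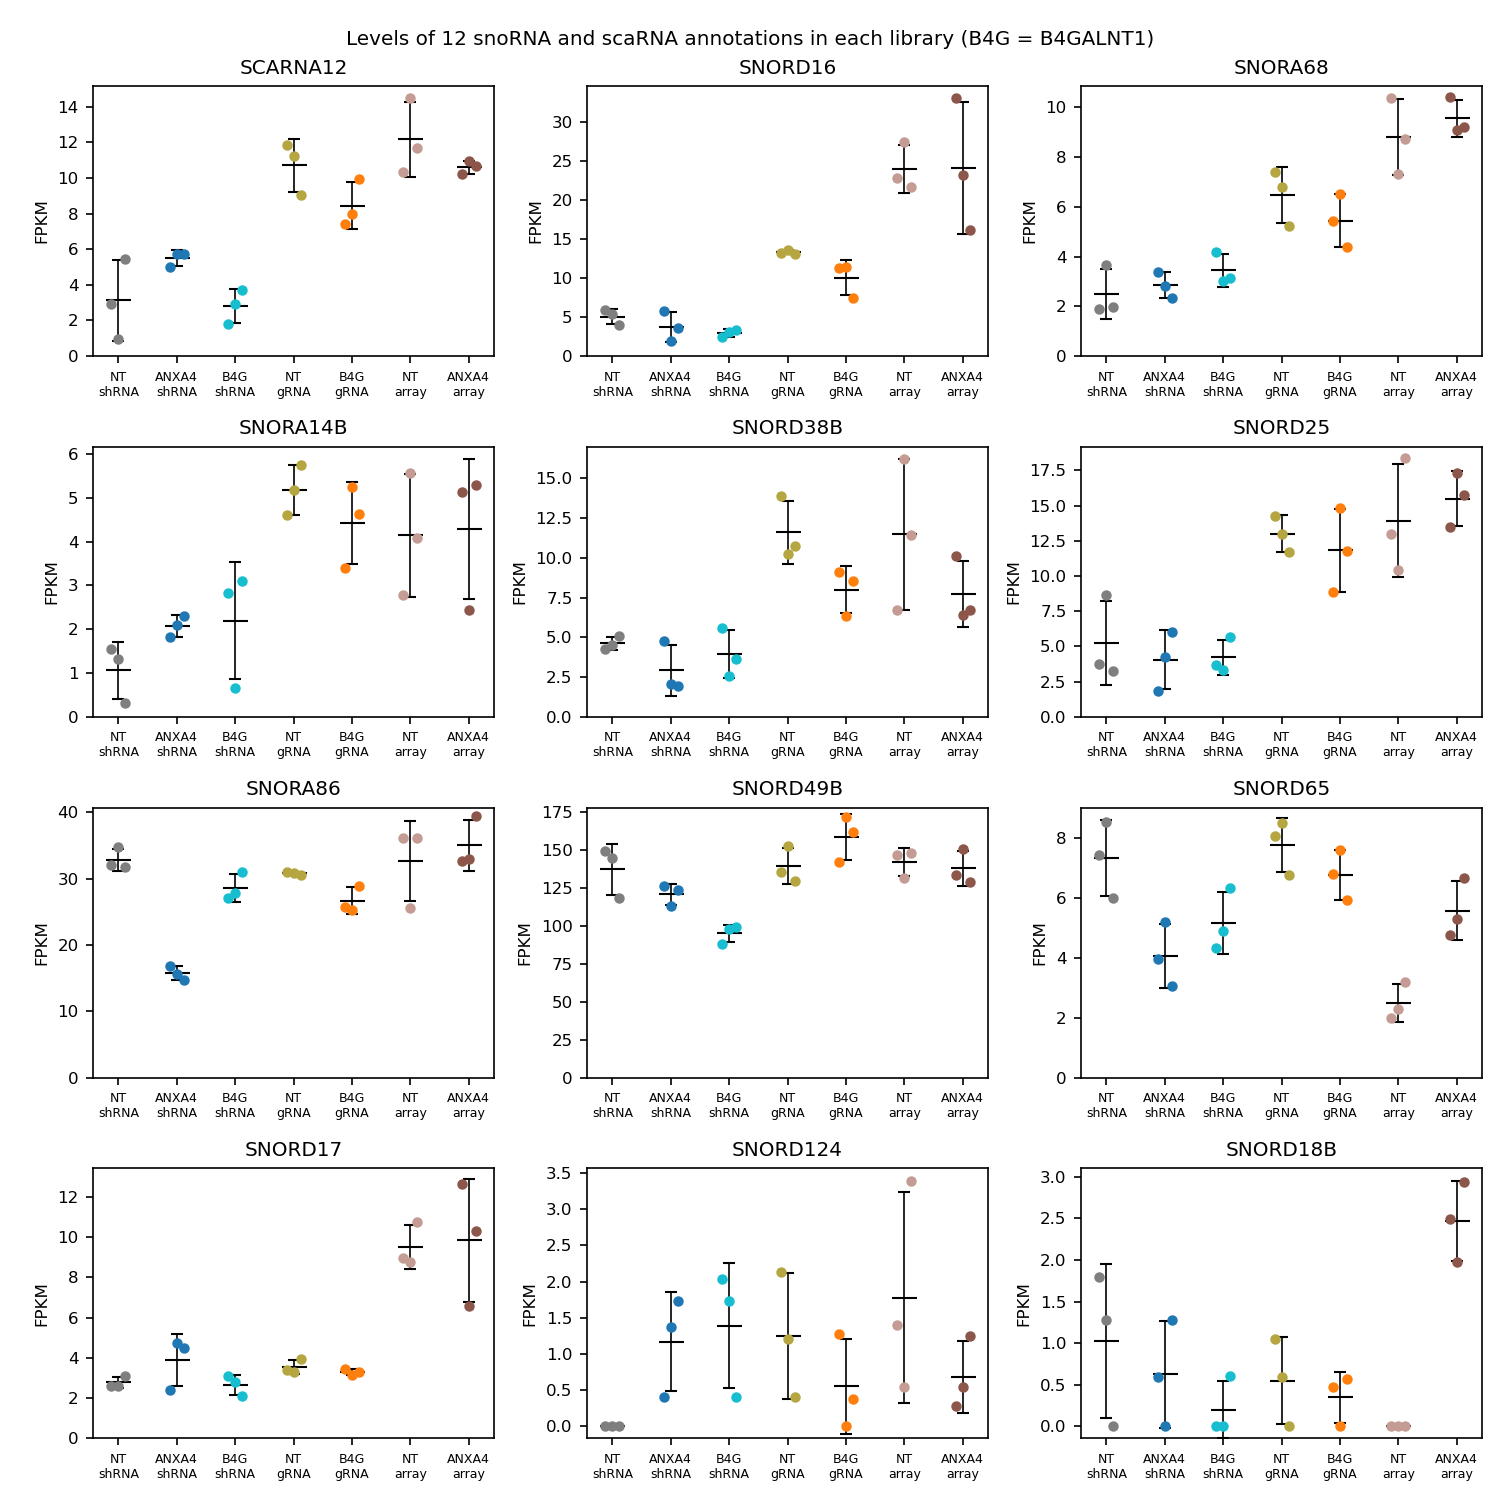
FPKM of 12 members in each of the 21 libraries (points), with group means (bars) and SD (whiskers), n = 3 per group. SCARNA12, SNORD16 and SNORD25 sit lower in the 9 shRNA libraries than in the 12 RfxCasR libraries, and SNORA86 is lowest with the ANXA4 shRNA (14.7 to 16.8 FPKM).

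The ANXA4 shRNA was compared with NT shRNA to ask what changes beside its target. Of the members 15 were called (9.04%), against 51.8% of all genes, 7 higher (4.22%, against 25.6%) and 8 lower (4.82%, against 26.3%). The number was 25 when only the groups compared were fitted, and 9 with no filter or with one of 5 FPKM. The median difference was -0.07 over the members and -0.01 over all genes. Non-overlapping libraries were seen for 5 members in the higher direction (3.01%, against 29.9%) and 14 in the lower (8.43%, against 31.1%).

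SNORA86 fell the most clearly. It stood at 32.0, 34.8 and 31.7 FPKM in NT shRNA and at 16.8, 15.6 and 14.7 with the ANXA4 shRNA, with at least 46 reads in each library. The difference was -1.02 (SE 0.10, adjusted p = 8.46e-08). This box H/ACA annotation lies in an exon of ITGB1, the integrin beta 1 gene, and ITGB1 fell by 1.04 on the same scale (adjusted p = 5.36e-11), from 61.5 to 67.6 FPKM to 30.0 to 32.7. SNORA86 was at 25.2 to 39.5 FPKM in every other group, above all ANXA4 shRNA libraries.

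Of the box C/D members, SNORD139 fell by 0.36 (adjusted p = 4.89e-05; 204, 218 and 205 against 164, 168 and 157 FPKM), beside a fall of 0.35 in its host RPL3. SNORD65 fell by 0.73 (adjusted p = 0.00104; 7.45, 8.55 and 6.01 against 3.96, 5.20 and 3.07 FPKM), beside a fall of 0.65 in LRRC75A-AS1. SNORD110 fell by 1.09 (adjusted p = 0.00108), from 7.81, 5.35 and 8.19 to 2.20, 3.16 and 2.99 FPKM on 4 to 14 reads, whereas NOP56 differed by 0.01. These 3 members did not overlap between the groups, and the first 2 moved with their host. SNORD67 in CKAP5 fell by 0.82 (adjusted p = 0.0283) beside a fall of 0.35 in CKAP5, on 0 to 6 reads, a call lost without ANXA4 shRNA replicate 1, NT shRNA replicate 1 or NT shRNA replicate 2.

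SNORD141A fell by 0.25 (adjusted p = 2.18e-04), from 1964, 2042 and 1907 FPKM to 1577, 1666 and 1736, and SNORD141B by 0.25. EEF1A1 fell by 0.27 (adjusted p = 5.89e-08), so the values at these annotations and at EEF1A1 moved alike. SCARNA12 rose by 0.82 (adjusted p = 0.0172), to 5.0, 5.75 and 5.75 FPKM, with groups that overlapped, and the call was lost without NT shRNA replicate 2, the library with 6 reads. In the authors' deposited table its log2 fold change was 0.80 with an adjusted p of 0.0864. Every NT shRNA library listed SNORD105, in PPAN, at 0, where 3 reads would have given 1.47 to 1.57 FPKM. With the ANXA4 shRNA SNORD105 stood at 0.970, 0.558 and 0.526 FPKM on 1 or 2 reads (adjusted p = 0.0303), a call lost without ANXA4 shRNA replicate 1 or any 1 of the NT shRNA libraries.

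For the B4GALNT1 shRNA against NT shRNA, 14 members were called (8.43%, against 44.4% of all genes), 6 higher (3.61%, against 18.4%) and 8 lower (4.82%, against 26%). Centring each library at its own median gave 6 higher and 3 lower. The number was 25 when only the groups compared were fitted, 8 with no filter or with one of 5 FPKM, and 9 by limma-voom. Leaving out B4GALNT1 shRNA replicate 1, B4GALNT1 shRNA replicate 3 or NT shRNA replicate 1 left 9. The medians were 0.02 over members and -0.04 over all genes. The non-overlapping members were 7 higher (4.22%, against 23.1%) and 10 lower (6.02%, against 32.4%).

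SNORD49B, in an exon of LRRC75A-AS1, stood at 149, 144 and 118 FPKM in NT shRNA and at 88.2, 97.5 and 98.7 under the shRNA (difference -0.52, adjusted p = 9.47e-05), and its host fell by 0.36 on the log2 scale. It rested on 104 to 170 reads a library, and the groups did not overlap. SNORA100, in an exon of HNRNPU, fell by 0.29 (adjusted p = 0.00213; 93.5 to 98.7 against 71.1 to 82.9 FPKM), the same as HNRNPU, which encodes a nuclear RNA-binding protein. SNORD139 fell by 0.18 (adjusted p = 0.0204), and RPL3 differed by -0.07 (adjusted p = 0.108). Centring on library medians ended that SNORD139 call, as did leaving out B4GALNT1 shRNA replicate 1 or 3 or NT shRNA replicate 2.

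SNORA67 rose by 0.49 (adjusted p = 0.0217), from 14.6, 16.5 and 10.8 FPKM to 19.3, 17.5 and 22.8, beside a rise of 0.19 in its host EIF4A1, an RNA helicase of translation initiation. The call was lost without B4GALNT1 shRNA replicate 3 or NT shRNA replicate 3. SNORA61 in SNHG12 rose by 0.71 (adjusted p = 0.0224; 0.892 ± 0.41 to 2.06 ± 0.19 FPKM, SD, n = 3 each) on 2 to 7 reads, a call lost without B4GALNT1 shRNA replicate 2 or 3 or NT shRNA replicate 1 or 3. SNORD36B in RPL7A and SNORA25 fell by 0.94 and 0.83 (adjusted p = 0.0427 and 0.00987) on 0 to 4 reads. The SNORD36B call did not hold with centring or with either B4GALNT1 shRNA replicate 1 or 2 or any NT shRNA library left out.

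With RfxCasR the B4GALNT1 gRNA was compared with the NT gRNA. No member was called, and of all genes 0.00731% was called, which is B4GALNT1 itself. At an unadjusted p under 0.05 there were 11 members (6.63%, against 3.82% of all genes), limma-voom on recovered reads called 0, and the authors' deposited table called 0 of the 55 members it lists. The libraries did not overlap for 7 members in the higher direction (4.22%, against 5.34% of all genes) and 8 in the lower (4.82%, against 6.5%).

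In 4 members the effect of the B4GALNT1 gRNA, each against its own control, differed from that of the shRNA (2.41%, against 29.8% of all genes). The number was 8 without NT shRNA replicate 2, 7 with only the groups compared, 2 by limma-voom and 1 with no filter. SNORD49B stood at 142, 171 and 162 FPKM with the B4GALNT1 gRNA and at 135, 152 and 129 with the NT gRNA, beside the fall with the shRNA. The difference of the 2 effects was 0.71 (SE 0.13, adjusted p = 2.91e-04), and for LRRC75A-AS1 it was 0.43. The others were SNORD124, SNORD42A and SNORD23.

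For the arrays, the libraries labelled ANXA4 array were set against those labelled NT array. Called members were 2 (1.2%, against 0.285% of all genes), both higher (0.146% of all genes were) in the libraries labelled ANXA4 array, which have the higher ANXA4 level. SNORD65 stood at 1.99, 2.30 and 3.21 FPKM in the libraries labelled NT array (5, 6 and 8 reads) and at 4.77, 5.29 and 6.68 in those labelled ANXA4 array (12, 14 and 19 reads), a difference of 0.92 (SE 0.16, adjusted p = 0.0144). Its host LRRC75A-AS1 differed by 0.05 (adjusted p = 0.56). In all other groups SNORD65 ran from 3.07 to 8.55 FPKM. The 3 libraries labelled NT array listed SNORD18B at 0, where 3 reads would have given 1.2 to 1.25 FPKM. It stood at 2.49, 1.97 and 2.94 FPKM in those labelled ANXA4 array (6, 5 and 8 reads; adjusted p = 0.0257), with 0 to 1.79 FPKM in the remaining 15 libraries.

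The neighbouring copies were named after their values were seen, and the difference between copies was not tested. SNORD18A stood at 0 in 5 of the 6 array libraries and on 2 reads in the other, under the limit of 3 reads. SNORD18C stood at 6.50, 5.86 and 3.50 against 4.34, 9.49 and 6.14 FPKM, and RPL4 differed by 0.07. Left-out libraries decided both calls: SNORD65 lost its call without ANXA4 array replicate 2 or 3 or NT array replicate 1, and SNORD18B without any 1 of the 6. The authors' deposited table gives a log2 fold change of -1.201 for SNORD65 and a negative one for SNORD18B, both with an adjusted p of 1, in the opposite direction as for ANXA4. Not overlapping between the groups were 8 members in the higher direction (4.82%, against 5.88%) and 15 in the lower (9.04%, against 4.42%).

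The 6 array libraries were set against the 6 single-guide libraries of RfxCasR, which differ in guide design, in depth and in the even share given above. Their targeting groups also differ in target, ANXA4 in the arrays and B4GALNT1 with single guides. These differences cannot be told apart. Members called were 50 (30.1%, against 67.8% of all genes), 32 higher (19.3%, against 28.5%) and 18 lower (10.8%, against 39.3%), and 27 with a filter of 5 FPKM. Centring removed a shift of -0.07 in the library medians and gave 42 higher and 11 lower. Library values did not overlap for 15 members in the higher direction (9.04%, against 18.2%) and 2 in the lower (1.2%, against 24.6%).

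SNORD141A was higher in every array library, at 3410 to 3799 FPKM against 1951 to 2056 (medians 3568 and 1994; difference 0.83, adjusted p = 2.80e-13), and EEF1A1 differed by 0.08 (adjusted p = 6.37e-04). SNORD17, a long box C/D RNA in an intron of the sorting nexin gene SNX5, stood at 3.15 to 3.95 FPKM with single guides (median 3.34) and at 6.58 to 12.6 in arrays (median 9.63). The difference was 1.25 (adjusted p = 8.35e-08), with 0.19 for SNX5. SNORA100 stood at 84.4 to 106 (median 91.0) against 134 to 159 FPKM (median 148; difference 0.67, adjusted p = 6.58e-10), beside a rise of 0.28 in HNRNPU. SNORD38A was lower, at 2.33 to 4.67 FPKM with single guides (median 3.06) and 0 to 1.17 in arrays (median 0.804; difference -1.45, adjusted p = 3.19e-04), while SNORD38B ran from 6.32 to 13.9 and from 6.41 to 16.2 FPKM. SNORD137 fell by 1.19 (adjusted p = 0.00115), on 0 to 2 reads in the arrays.

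Members of 1 host did not always move together. SNORA40 rose from 5.27 to 8.31 FPKM (median 6.32) to 10.1 to 20.3 (median 19.0; difference 1.30, adjusted p = 2.42e-06), and of the 6 members that GENCODE places in TAF1D (a subunit of the RNA polymerase I selectivity factor), 5 were higher and SNORA25 was lower, while TAF1D differed by 0.17. SNORA25 rested on 0 to 5 reads a library in the arrays and 2 to 7 with single guides. TAF1D was picked out after its members' values were seen. In GAS5, 4 of 10 members were called higher, SNORA103 by 1.41 (adjusted p = 3.59e-05; 1.29 ± 0.77 to 4.92 ± 1.4 FPKM, SD, n = 6 each), while GAS5 fell by 0.45. In SNHG1, 0 of 8 members were called while SNHG1 rose by 0.69. GAS5 and SNHG1 are the hosts with the most members. The counts by host stand beside 28.5% of all genes called higher and 39.3% called lower. The 2 remaining large rises were SNORA7A in RPL32 (1.34, with 0.44 for RPL32) and SNORD88C in C19orf48 (1.44, with -0.07 for the host), with adjusted p-values of 7.34e-06 and 1.60e-05.

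The member was next tested against its host directly, as the log2(FPKM + 0.1) of the member minus that of the host, in 38 member and host pairs in which both had means of at least 5 FPKM. The background was the 344 pairs of any enclosed and enclosing gene in the table. Between RfxCasR NT gRNA and NT shRNA, 9 pairs were called (23.7%, against 15.1% of all pairs), all with the member higher relative to its host, a direction called in 10.5% of all pairs (lower in 4.65%). Among them were SCARNA12 in PHB2 (2.09, SE 0.41, adjusted p = 0.00221), SNORD16 in RPL4 (1.47), SNORD76 in GAS5 (1.43), SNORD23 in GLTSCR2 (1.03), SNORD17 in SNX5 (0.78) and SNORD96A in RACK1 (0.55). In each of the 9 the libraries of the groups did not overlap. Without RfxCasR NT gRNA replicate 1, 4 pairs were called, and SNORD17 and SNORD96A lost their calls with any 1 of the 6 libraries left out. The filter of 5 FPKM used the mean over all 21 libraries, so it favoured members high with RfxCasR. In NT shRNA, SCARNA12 stood at 0.981 to 5.47 FPKM, SNORD76 at 1.55 to 3.25 and SNORD17 at 2.61 to 3.12. The share called and its direction are therefore a description and no test of a rise with RfxCasR.

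The shRNA comparisons had fewer such pairs. With the ANXA4 shRNA 3 were called (7.89%, against 12.8% of all pairs, 7.27% higher and 5.52% lower), all higher relative to the host: SNORD49B (0.47), SNORD58B in RPL17 (0.42) and SNORD23 (0.85, adjusted p = 0.00614). The SNORD58B call was lost with any 1 of the 6 libraries left out, and with a replicate block. With the B4GALNT1 shRNA, SNORD23 alone was called (0.81; 2.63%, against 15.4% of all pairs, 7.85% higher and 7.56% lower), and 2 pairs were called without NT shRNA replicate 3. SNORD23 stood at 7.95, 13.3 and 8.34 FPKM in NT shRNA, at 13.5, 12.9 and 13.0 with the ANXA4 shRNA and at 13.3, 17 and 13.7 with the B4GALNT1 shRNA, while GLTSCR2, a nucleolar protein gene, fell from 128 to 135 FPKM to 94.1 to 103 and to 110 to 122. These comparisons and the preceding one share the NT shRNA libraries.

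With the B4GALNT1 gRNA 0 pairs were called, and 0% of all pairs. In the arrays by label, SNORD65 was called (1.09, adjusted p = 0.0289; 2.63%, against 0.581%), a call lost without ANXA4 array replicate 3 or NT array replicate 1 or 2. Between arrays and single guides 24 pairs were called (63.2%, against 56.1%), 18 with the member higher (47.4%, against 28.8%) and 6 lower (15.8%, against 27.3%). Both SNORA105A and SNORA105B, which share 1 place in HSPD1, are among the 24. SNORD34 in RPL13A (1.63), SNORD4A in RPL23A (1.49), SNORD76 (1.30) and SNORD17 (1.26) had the largest rises, and SNORD22 in SNHG1 (-0.86), SNORD65 (-0.73) and SNORD68 in RPL13 (-0.70) the lowest. The SNORD34 call (adjusted p = 0.0409) was lost in 9 of 12 removals of 1 library. The filter of 5 FPKM used the mean over all 21 libraries, arrays included, so it favoured members high in the arrays. SNORD34, SNORD4A and SNORD17 had single-guide medians of 4.70, 3.91 and 3.34 FPKM, below that filter. The larger share with the member higher is therefore a description and no test of a rise in the arrays.

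The relation of member to host is given as a description by position, over members that share libraries. Pearson's r between the difference of the member and that of its host was 0.75 over 8 exonic members and 0.46 over the other 30 for the ANXA4 shRNA, 0.95 and -0.10 for the B4GALNT1 shRNA, and 0.86 and -0.08 for the NT gRNA against NT shRNA. In the arrays against single guides the values were 0.43 and -0.19. With the B4GALNT1 gRNA they were 0.39 and -0.14, and in the arrays by label 0.56 and -0.04. SNORA105B is counted among the exonic members and SNORA105A among the other 30, although both share 1 place in the table. Members also differ in read numbers, and the part of this in the values of r was not tested.

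**Figure D5:**
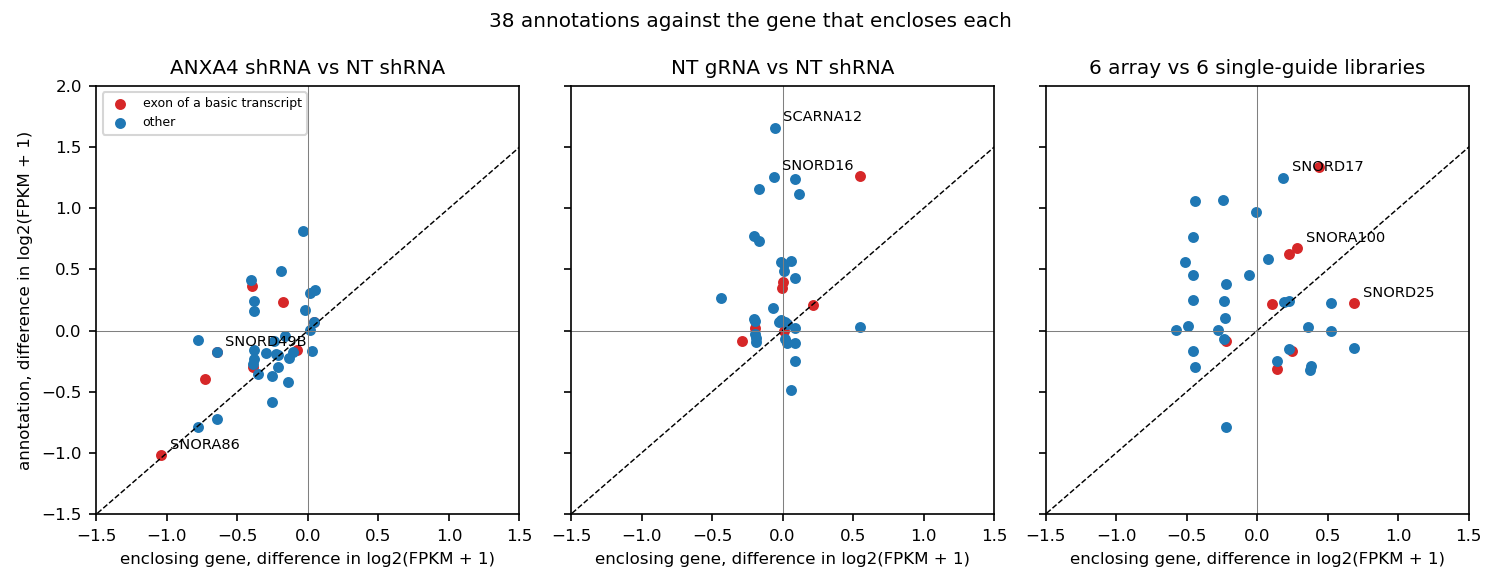
Difference in log2(FPKM + 1) of 38 members (vertical) against that of the host (horizontal), in 3 comparisons, with the line of equal change dashed and members in basic exons in red. SNORA86 lies on the line with the ANXA4 shRNA (-1.02 against -1.04), whereas SCARNA12 and SNORD16 lie at 1.66 and 1.26 over hosts at -0.06.

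Genes for the proteins that work with these RNAs were read from the same model. Their counts stand beside 25.6% of all genes higher and 26.3% lower with the ANXA4 shRNA, 18.4% and 26% with the B4GALNT1 shRNA, 22.4% and 26.5% for the NT gRNA against NT shRNA, and 28.5% and 39.3% for arrays against single guides, and nothing particular to these lists is read from them. Of the box H/ACA core genes, DKC1 and NHP2 rose with the ANXA4 shRNA (0.32 and 0.33), all 4 rose with the B4GALNT1 shRNA, with NOP10 from 126 to 157 FPKM (0.32, adjusted p = 5.62e-05), and NHP2 and NOP10 rose with the NT gRNA against NT shRNA. In the arrays 2 of the 4 were called higher than with single guides and 1 lower. NOP10 was at a mean of 256 FPKM in the arrays against 145 with single guides (0.82). Of 3 box C/D core genes in the table, FBL fell with the B4GALNT1 shRNA (-0.32, 393 to 314 FPKM) and in the arrays (-0.18), and NOP56 fell with the NT gRNA (-0.19). Called higher were 1 of the 3 with the ANXA4 shRNA and 2 of the 3 in the arrays, among them NOP56 (0.23). With either RfxCasR target no gene of these 2 lists was called.

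The factors that assemble or process the particles were called in both directions, beside the same shares of all genes. Of 10 assembly factors, 5 rose and 0 fell with the ANXA4 shRNA, and 3 rose and 4 fell with the B4GALNT1 shRNA, where RUVBL1, an ATPase of the R2TP complex, fell from 90.1 to 55.7 FPKM (-0.69, adjusted p = 1.20e-10). Of 13 genes for debranching, trimming and capping, 1 rose and 8 fell between the NT gRNA and NT shRNA, among them DBR1, the lariat debranching enzyme (-0.22, adjusted p = 0.0035), and 9 rose and 1 fell in the arrays. With the B4GALNT1 shRNA NCBP2, a subunit of the cap-binding complex, fell from a mean of 28.5 to 14.3 FPKM (-0.94). Of 9 Cajal body and small nuclear RNP genes, 4 rose and 2 fell with the ANXA4 shRNA and 1 rose and 3 fell with the NT gRNA, where COIL, the coilin gene, differed by 0.14 (adjusted p = 0.00924). The assembly, processing and Cajal body lists had 0 calls with the B4GALNT1 gRNA and 0 in the arrays by label.

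Other RNAs without a poly(A) tail give a comparison for the members. Replication-dependent histone messages, 36 tested of 61, summed to 57.6 to 82.9 FPKM in the 9 shRNA libraries, 138 to 163 in the 6 single-guide libraries and 211 to 257 in the arrays. Between the NT gRNA and NT shRNA 23 of 36 histone genes rose and 1 fell (22.4% and 26.5% of all genes), and between arrays and single guides 15 rose and 6 fell (28.5% and 39.3% of all genes). The part of this in the members' rises was not tested. The summed level of other small noncoding RNAs went the other way in the arrays. Of 15 that the data list, 5 were at 0 in every library, and their sum was 8.46 to 26.3 FPKM in the 15 other libraries and 1.78 to 5.12 in the arrays. Only 4 passed the filter and were tested. Against single guides 2 of the 4 were called lower and 0 higher (39.3% and 28.5% of all genes). The 2 were RMRP (-2.26) and RPPH1 (-2.10), the RNAs of RNase MRP and RNase P. MicroRNA annotations, 345 tested, were called in 15.7%, 9.28%, 0%, 0.58%, 10.1% and 42.6% for the ANXA4 shRNA, B4GALNT1 shRNA, B4GALNT1 gRNA, arrays by label, control and array against single-guide comparisons.

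Of 14 genes listed for HEK 293 cells, 12 passed the filter, against 5 of 14 blood, fibroblast and endothelial genes, whose sum was 8.78 to 17.8 FPKM. These lists do not by themselves identify the line. The HEK 293 list summed to 633 to 656 FPKM in NT shRNA and to 878 to 900 in RfxCasR NT gRNA, and the other list to 14.2 to 15 and 15.9 to 17.8.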

How the data were processed

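Stranded mRNA libraries of 21 samples (7 groups of 3) were analysed as deposited. Reads were aligned to hg19 with STAR and quantified with HOMER, per the submitters' processing notes. Per the file headers, HOMER counted sense reads in exons, condensed to 1 row a gene, and the authors gave the result as FPKM. The authors' deposited comparison tables hold a mean normalized count (a signal over the libraries), log2 fold changes and adjusted p-values from DESeq2 1.14.1, with the version from the processing notes. They served only as an alternative.

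The members and gene lists were chosen with earlier results of these data known. Genes with at least 1 FPKM in 3 libraries were tested on log2(FPKM + 1) with limma 3.58.1 (R 4.3.3) in 1 model of the 7 groups, with moderated variances and Benjamini-Hochberg adjustment over all genes. Member minus host used log2(FPKM + 0.1) where both means reached 5 FPKM. A host is the gene whose start, end and strand enclose the member. Read numbers were recovered from FPKM, length and depth: 96.7% to 99.6% of values per library came out whole within 0.1 of a read. They entered limma-voom as an alternative, and intervals or limits from them cover counting error only. The procedure was tested on simulated data. Named were SCARNA12, SNORD124, SNORD18B, the 10 members with the highest mean, the 5 largest called rises and falls without overlap per comparison, members called apart from their host, the hosts of these, the 2 targets, and up to 4 genes with the smallest p per list. Alternatives changed the pseudocount, filter, centring, model, groups and libraries. Positions and sequences came from GENCODE v29 (GRCh38), and gene loci of SNORD141B and SNORA105A from RefSeq. Some host genes and the sequences within them are not reported here.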

Additional observations from a re-analysis of the deposited data

Results flagged for a closer look

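For 4 members the effect of the B4GALNT1 gRNA (against NT gRNA) differed from that of the B4GALNT1 shRNA (against NT shRNA) by a test of the difference itself (limma interaction term on log2(FPKM + 1), adjusted over all genes). It was 0.71 for SNORD49B (adjusted p = 2.91e-04), whose host LRRC75A-AS1 differed by 0.43. For SNORD124 it was -1.72 (adjusted p = 0.0241), on 0 to 6 reads a library. That fitted value rests on an NT shRNA group listed at 0, depends on the pseudocount and is no bound on the difference. For SNORD42A, in RPL23A, it was -1.36 (adjusted p = 0.0231), and for SNORD23 -0.61 (adjusted p = 0.0395), beside 0.28 for its host GLTSCR2. Leaving out single libraries ended the call in 4 of 12 removals for SNORD124, 4 of 12 for SNORD42A and 7 of 12 for SNORD23, and in 0 of 12 for SNORD49B. The number of such members was 3 to 8 with 1 library left out, with 8 without NT shRNA replicate 2.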

How the results depend on the processing

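Of 1265 recomputed values of 87 named results, 1099 kept direction and call, 164 kept direction only and 2 reversed, both in the authors' deposited table of the array comparison (SNORD18B -3.94, SNORD65 -1.201); the cause was not tested. A filter of 5 FPKM, which tests fewer members, left 9 called for the ANXA4 shRNA, 8 for the B4GALNT1 shRNA, 1 between the arrays by label and 27 for arrays against single guides. With no filter, which tests more genes, the counts were 9, 8 and 1 for the first 3 and 1 for the difference of the B4GALNT1 effects. With only the groups compared they were 25, 25, 1 and 7. Median-centring and voom each gave 9 for the B4GALNT1 shRNA, voom 2 for the difference of effects, a pseudocount of 0.1 gave 1 between the arrays, and the authors' table, which calls fewer, gave 4, 1 and 0. For pairs between the arrays a mean of at least 2 FPKM gave 0.

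Leaving out 1 library gave 10 to 16 members for the ANXA4 shRNA, 9 to 13 for the B4GALNT1 shRNA, 0 for the B4GALNT1 gRNA, 0 to 1 between the arrays (0 without ANXA4 array replicate 2 or 3 or NT array replicate 1), 15 to 23 for the control groups and 43 to 53 for arrays against single guides. The pairs called were 2 to 3, 1 to 2, 0, 0 to 1, 4 to 7 and 22 to 25 in the same order, and the difference of effects gave 3 to 8 (8 without NT shRNA replicate 2). Replicate numbers did not pair the samples (correlations of deviations -0.146 to 0.109). With the replicate block 0 pairs were called between the arrays and 7 members for the difference of effects, and 6 of 87 named results lost their call. Of the 166 members, 83 averaged under 5 reads a library, where differences within counting error were not detectable. The SNORD18B value above is against a group at 0 and is no bound.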
